A study of Mus musculus with 6 samples.

Results

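The Arp2/3 complex genes described here are the 10 genes that encode its subunits and their isoforms in the mouse: Actr2, Actr3, Actr3b, Arpc1a, Arpc1b, Arpc2, Arpc3, Arpc4, Arpc5 and Arpc5l. They were found by symbol among the 18160 genes of a table of normalized counts, and all 10 were listed. The prefrontal cortex of adult C57BL/6J mice at postnatal day 56 was profiled by RNA sequencing. There were 3 wild-type samples and 3 samples from heterozygotes for a Cyfip2 mutation, the nature of which the labels do not give. No other allele or treatment is named for either genotype. Whether the 3 samples of each genotype are 3 different mice is not stated in the labels. The p-values therefore measure only the spread between these samples, which may be technical.

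The Arp2/3 complex binds the side of an existing actin filament and starts a new one as a branch. Its actin-related subunits, Arp2 and Arp3, form the base of the daughter filament, ARPC2 and ARPC4 make up the scaffold that contacts the mother filament, and ARPC1, ARPC3 and ARPC5 complete the assembly. The complex is inactive alone and is switched on by nucleation-promoting factors such as the WAVE regulatory complex, of which CYFIP2 is a subunit. In cortical neurons branched actin shapes dendritic spines and growth cones, and in microglia it drives the movement of processes and phagocytosis. Mice carry alternative genes for Arp3 (Actr3 and Actr3b), ARPC1 (Arpc1a and Arpc1b) and ARPC5 (Arpc5 and Arpc5l), so a cell can build complexes of different makeup.

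The paralogues can be told apart in RNA sequencing only through bases at which they differ, so their coding sequences were compared first. In the GENCODE M21 transcripts, Actr3 and Actr3b agreed at 76.3% of 1254 aligned coding bases, Arpc1a and Arpc1b at 74.8% of 1097, and Arpc5 and Arpc5l at 73.2% of 447. The longest identical run within a pair was 20, 21 and 21 bases, and no stretch of 31 bases was shared by both transcripts of a pair. The window of 120 coding bases in which each pair was most alike is shown, since it is where a short read is hardest to assign. Capitals mark the bases that differ within the pair, and all windows run 5′ to 3′ on the coding strand.
Actr3: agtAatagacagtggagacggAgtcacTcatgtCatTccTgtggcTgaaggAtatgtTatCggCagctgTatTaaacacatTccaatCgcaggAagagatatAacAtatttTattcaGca
Actr3b: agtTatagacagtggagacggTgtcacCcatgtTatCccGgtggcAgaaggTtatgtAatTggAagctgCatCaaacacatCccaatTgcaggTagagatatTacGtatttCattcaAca
Arpc1a: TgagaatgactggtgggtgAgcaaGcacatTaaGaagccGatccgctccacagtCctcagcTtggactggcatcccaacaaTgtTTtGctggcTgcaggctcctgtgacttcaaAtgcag
Arpc1b: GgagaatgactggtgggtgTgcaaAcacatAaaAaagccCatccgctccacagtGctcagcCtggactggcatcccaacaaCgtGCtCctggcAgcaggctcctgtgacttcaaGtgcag
Arpc5: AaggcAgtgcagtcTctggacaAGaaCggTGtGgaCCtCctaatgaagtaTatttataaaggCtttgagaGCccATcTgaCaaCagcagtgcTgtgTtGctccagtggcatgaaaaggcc
Arpc5l: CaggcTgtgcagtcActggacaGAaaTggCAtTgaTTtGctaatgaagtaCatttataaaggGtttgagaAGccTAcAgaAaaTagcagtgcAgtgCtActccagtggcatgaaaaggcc
Even in these windows the pairs differed at 20, 14 and 24 of 120 bases. The Actr3 and Actr3b windows are coding bases 498 to 617 of both genes, across exons 6 and 7. On GRCm38 they lie within chr1:125405912-125407334 (minus strand) and chr5:25825173-25829602 (plus strand). The Arpc1 windows are coding bases 381 to 500, across exons 4 and 5, within chr5:145096263-145097323 for Arpc1a and chr5:145123780-145124694 for Arpc1b, both on the plus strand. The Arpc5 window is coding bases 277 to 396 within chr1:152771424-152774262, and the Arpc5l window is bases 283 to 402 within chr2:39013783-39015060, across exons 3 and 4 of each and both on the plus strand. Each of these genomic intervals spans an intron.

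Longer identical stretches were shared with genes other than the paralogue. Of the 31-base words in the Actr3 transcript, 63.6% also occur in the transcript of another gene, nearly all of them in the processed pseudogene Gm8822, and for Arpc1b the share was 42.4%, mostly in the processed pseudogene Gm5637. The mean normalized count of Gm8822 was 5.71 for wild-type samples and 4.17 for heterozygotes, and that of Gm5637 was 1.24 and 0.351, far below Actr3 and Arpc1b. Words were taken only from the transcript with the longest coding sequence of each member. In these transcripts Actr3b, Arpc3 and Arpc5l shared no such word with another gene, and the other 5 members shared 4.93% to 11.3%. Arpc4 shared 253 words with Ttll3, a neighbour whose exons overlap it on the same strand and whose mean was 133 for wild-type samples and 135 for heterozygotes. Over all annotated transcripts, exons of Arpc1b overlap 931 bases of Pdap1 on the opposite strand (means of 3065 and 3062). Those of Arpc5l overlap 62 bases each of Wdr38 on the same strand and Rpl35 on the opposite one. The kit keeps strand, but no source used here says whether the quantification used it. How reads shared with these genes were divided is not known either, so the levels of Actr3, Arpc1b and Arpc4 are the least certain.

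No Arp2/3 gene passed an adjusted p of 0.05 between genotypes, and the wild-type and heterozygous values of all 10 overlapped. All 10 averaged at least 10 normalized counts over the 6 samples and were tested among 15151 genes with limma-trend. Of all tested genes 0.0132% passed (0.0066% higher and 0.0066% lower in heterozygotes), and 10.5% did not overlap between genotypes (5.15% higher and 5.3% lower). With so few genes passing at all, 0 of 10 is what that rate gives and is no result about these genes. At an unadjusted p under 0.05 none of the 10 passed either, beside 5.07% of all tested genes (2.36% higher and 2.71% lower), and the smallest adjusted p of a member was 0.96. Cyfip2 itself was at 45454, 43174 and 45627 normalized counts in wild-type samples 1 to 3 and at 28356, 28578 and 29567 in heterozygous samples 1 to 3. Heterozygotes thus had 64.4% of the wild-type level, with a 95% interval of 59.7% to 69.5% (limma-trend, adjusted p = 0.0027). The lower bound of every Arp2/3 gene lay above the upper bound of Cyfip2. No share of all tested genes is at hand for this, and their median absolute log2 fold change was only 0.069. It is therefore not read as particular to these genes. The call for Cyfip2 was lost by limma without a variance trend (adjusted p = 0.15).

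**Figure D1:**
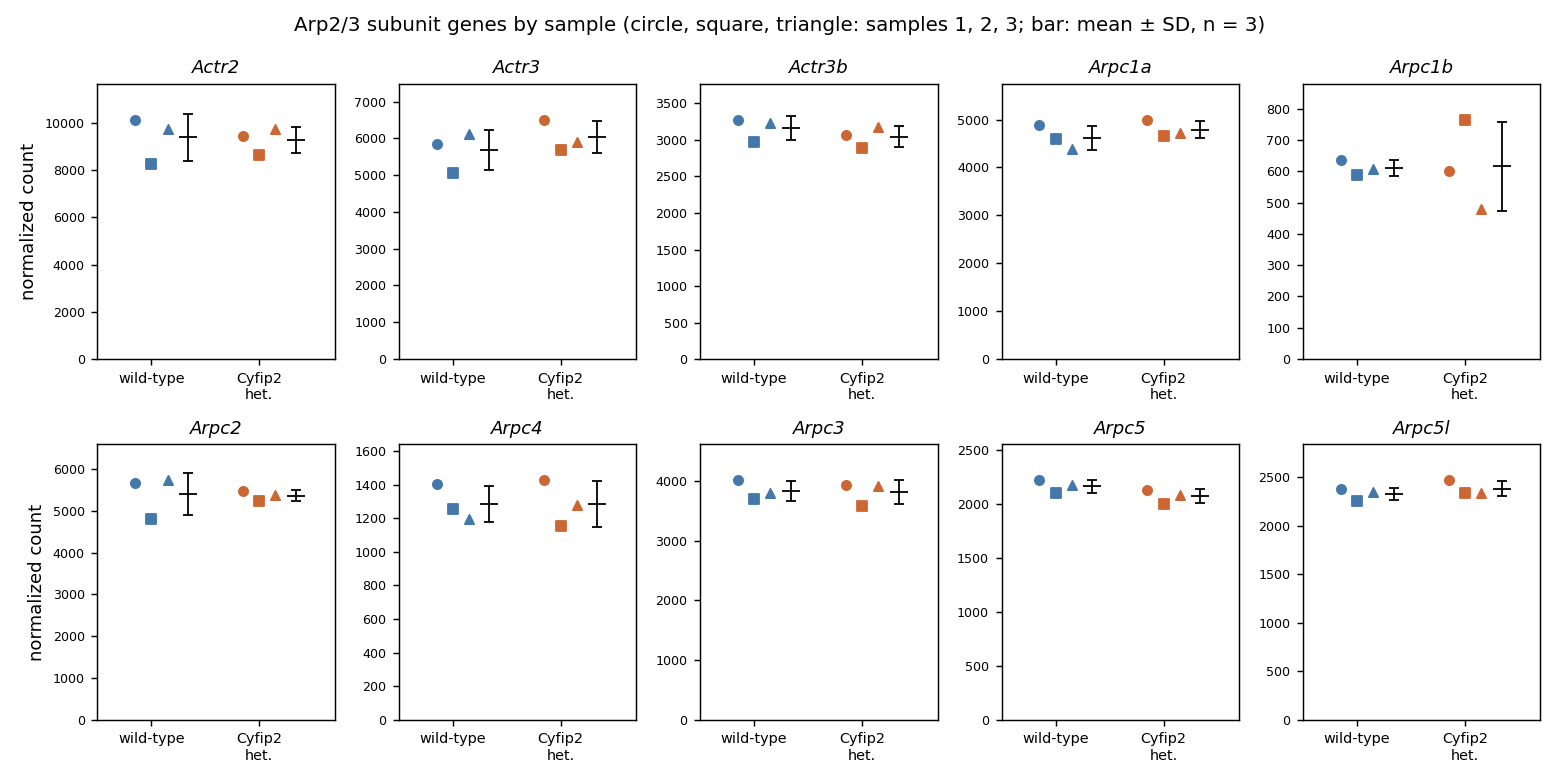
Normalized counts of the 10 Arp2/3 subunit genes (y axes, each from 0) in 3 wild-type (blue) and 3 Cyfip2 heterozygous (orange) samples, with circles, squares and triangles for samples 1, 2 and 3 and black bars for the mean ± SD. The genotypes overlap in every panel, and Arpc1b has the widest spread, from 480 in heterozygous sample 3 to 766 in heterozygous sample 2.

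The actin-related subunits came first. Actr2, which encodes Arp2 (chromosome 11, 20062304 to 20112913, minus strand), was at 10152, 8269 and 9760 normalized counts in wild-type samples 1, 2 and 3. In heterozygous samples 1, 2 and 3 it was at 9459, 8657 and 9749. Sample 2 was the lowest of each genotype, and the gap between wild-type samples 1 and 2 exceeded the whole heterozygous range. The heterozygous mean was 9288 ± 565 (SD, n = 3) against 9393 ± 993 (SD, n = 3), and the fitted level was 99.1% of wild type with a 95% interval of 87.6% to 112% from limma-trend.

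Actr3, the main Arp3 gene (chromosome 1, 125392905 to 125435727, minus strand), had the largest fitted difference of the complex. It was at 5843, 5065 and 6113 normalized counts in wild-type samples and at 6510, 5676 and 5913 in heterozygous samples. Heterozygous sample 1 was the highest and wild-type sample 2 the lowest of the 6, and the other 4 were interleaved. The log2 fold change was 0.091 ± 0.079 (SE), or 106% of wild type with an interval of 94.3% to 120% by limma-trend. Without wild-type sample 2 the log2 fold change was 0.011. Actr3b, its paralogue with known expression in brain (chromosome 5, 25759997 to 25850688, plus strand), was at 3280, 2970 and 3227 normalized counts in wild-type samples and at 3067, 2891 and 3180 in heterozygous samples. Its fitted level was 96.5% of wild type, with an interval of 87.7% to 106%.

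Arpc1a and Arpc1b encode the WD40 propeller subunit that contacts the activator. The genes lie head to tail on the plus strand of chromosome 5, at 145083830 to 145108761 and 145114215 to 145130705, with 5453 bases between them. Arpc1a was at 4880, 4603 and 4380 normalized counts in wild-type samples and at 4999, 4653 and 4720 in heterozygous samples. Its fitted level was 104% of wild type, with an interval of 94.8% to 114%.

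Arpc1b, the isoform known for its high expression in blood-derived cells, was the lowest gene of the complex and the most variable over the 6 samples. The wild-type samples were close together, at 637, 588 and 607 normalized counts. The heterozygous samples were at 602, 766 and 480, so that the highest and the lowest of all 6 were both heterozygotes. The coefficient of variation was 4.09% for wild-type samples and 23.3% for heterozygotes, and the ratio of highest to lowest value over the 6 samples was 1.60, against 1.10 to 1.29 for the other 9 genes. The difference in spread between genotypes was not tested. The fitted level was 99.1% of wild type with an interval of 79.4% to 124% from limma-trend, the widest of the complex. The log2 fold change was -0.18 without heterozygous sample 2 and 0.15 without heterozygous sample 3.

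Markers of other cell types were set beside Arpc1b. The summed normalized counts of 15 microglial genes, all of them listed, were 16989, 20963 and 18781 in wild-type samples 1 to 3 and 19788, 20126 and 19093 in heterozygous samples 1 to 3. The highest microglial sum was in wild-type sample 2, where Arpc1b was at its wild-type low, and the lowest was in wild-type sample 1, where Arpc1b was at its wild-type high. So Arpc1b and the microglial sum had opposite orders over the wild-type samples. Over the heterozygous samples they had the same order, with sample 2 highest and sample 3 lowest in both. Endothelial sums over 10 markers were 13310, 16049 and 14686 in wild-type samples 1 to 3 and 15179, 16185 and 14778 in heterozygous samples 1 to 3. Hcls1, a cortactin relative of blood-derived cells, was at 126, 146 and 132 and at 129, 145 and 107. Both thus ran opposite to Arpc1b over the wild-type samples and in its order over the heterozygous ones. Leukocyte markers, with 6 of 8 listed, summed to 63.0, 88.1 and 68.4 in wild-type samples 1 to 3. In heterozygous samples 1 to 3 they summed to 69.3, 49.5 and 77.6, and both orders were opposite to Arpc1b. Only 1 of the 6 averaged at least 10 normalized counts, so the order of these sums rests on few counts. Between heterozygous samples 2 and 3, Arpc1b went from 766 to 480 and Hcls1 from 145 to 107. The microglial sum went from 20126 to 19093 and the endothelial sum from 16185 to 14778. The part of these cells in the Arpc1b values was not tested. In bulk tissue, fewer cells of a type and less RNA per cell cannot be told apart.

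The scaffold genes were the least changed by point estimate. Arpc2 (chromosome 1, 74236084 to 74268209, plus strand) was at 5661, 4817 and 5734 normalized counts in wild-type samples and at 5485, 5242 and 5379 in heterozygous samples. The heterozygous values all fell between the wild-type extremes. The fitted level was 99.6% of wild type, with an interval of 89.4% to 111%. Arpc4 (chromosome 6, 113378115 to 113390448, plus strand) was at 1401, 1255 and 1198 in wild-type and at 1426, 1152 and 1280 in heterozygous samples. Its fitted level was 99.9% of wild type, with an interval of 86.8% to 115%. In both genotypes sample 1 was the highest.

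Arpc3, a small peripheral subunit next to Arp3 (chromosome 5, 122391878 to 122414184, plus strand), was at 4015, 3698 and 3798 normalized counts in wild-type samples. In heterozygous samples it was at 3938, 3582 and 3925. Sample 2 was again the lowest of each genotype, and the fitted level was 99.4% of wild type with an interval of 90.6% to 109% by limma-trend.

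Arpc5 and Arpc5l, the alternative ARPC5 subunits that clamp Arp2 into the complex, had the narrowest ranges over the 6 samples. Their coefficients of variation were the lowest of the complex for wild-type samples, at 2.76% and 2.84%, while for heterozygotes Arpc2 was lower (2.27% against 3.24% and 3.16%). Arpc5 (chromosome 1, 152766542 to 152775597, plus strand) was at 2220, 2102 and 2173 normalized counts in wild-type samples and at 2134, 2001 and 2087 in heterozygous samples. Each genotype held a value inside the other's range, so the groups overlapped. The fitted level was 95.8% of wild type, with an interval of 87.8% to 104%. Arpc5l (chromosome 2, 39005348 to 39015877, plus strand) was at 2379, 2253 and 2350 in wild-type and at 2469, 2334 and 2342 in heterozygous samples. Its fitted level was 102% of wild type, with an interval of 93.9% to 111%.

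**Figure D2:**
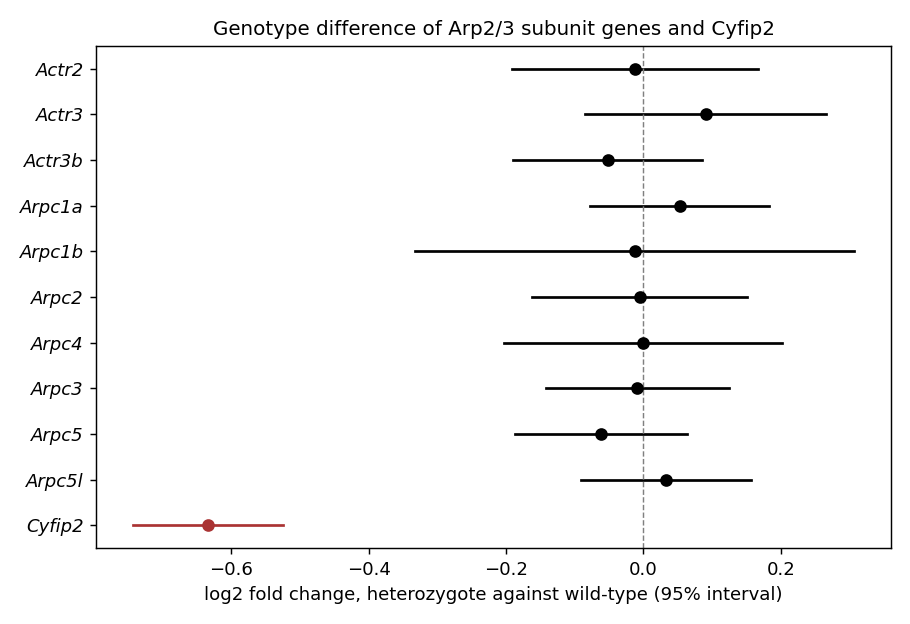
Fitted log2 fold change (x axis, heterozygote against wild-type) of the 10 Arp2/3 genes (black) and Cyfip2 (red), with 95% intervals from limma-trend as lines. All 10 Arp2/3 intervals include 0 and none reaches the interval of Cyfip2.

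Among themselves, the 10 genes had a median log2 fold change of -0.0071, with a range of -0.062 to 0.091, beside a median of 0.0020 over all tested genes. Of the 10, 3 were above wild type and 7 below, where 50.8% of all tested genes were above. All 10 had a fitted change of less than 0.1 on the log2 scale, as did 64.6% of all tested genes, many of which are expressed at lower and noisier levels. The sign was not stable for Actr2, Arpc1b, Arpc2, Arpc3 and Arpc4, which each turned when at least 1 sample was left out. Arpc4 also turned after trimmed-mean rescaling or with array weights.

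Samples differed in the complex as a whole more than genotypes did. The mean log2 deviation of the 10 genes from their wild-type means was 0.070, -0.082 and 0.012 in wild-type samples 1, 2 and 3. It was 0.056, -0.030 and -0.019 in heterozygous samples 1, 2 and 3. In wild-type sample 2 all 10 genes were below their wild-type mean, and in wild-type sample 1 none was. Wild-type sample 1 held the highest value of 4 genes and heterozygous sample 1 that of another 4, while wild-type sample 2 and heterozygous sample 2 held the lowest value of 4 genes each.

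Cell type markers moved between the same samples. In wild-type samples 1 and 2, where the Arp2/3 mean was 0.070 and -0.082, astrocyte markers were at -0.17 and 0.15, microglial markers at -0.13 and 0.14, and endothelial markers at -0.12 and 0.12 (mean log2 deviation over 7, 15 and 10 genes, all listed). These lists ran opposite to Arp2/3 over the wild-type samples, while neuronal markers ran in its order. Excitatory markers were at 0.046, -0.053 and 0.0069 and inhibitory markers at 0.076, -0.066 and -0.010 in wild-type samples 1, 2 and 3. By summed counts the excitatory order differed, at 260607, 265324 and 268999. These orders did not hold over heterozygous samples 1, 2 and 3, where Arp2/3 was at 0.056, -0.030 and -0.019. There, excitatory markers ran opposite to Arp2/3 at -0.083, -0.055 and -0.069, and inhibitory markers were at 0.18, 0.0995 and 0.092. Astrocyte markers were at 0.072, 0.15 and -0.0091, microglial at 0.073, 0.084 and 0.029, and endothelial at 0.053, 0.13 and -0.0085. Oligodendrocyte markers were at 0.26 and striatal markers at 0.29 in wild-type sample 2, with the other 5 samples between -0.24 and -0.066 and between -0.26 and -0.078. The part of these shifts in the Arp2/3 values was not tested. Between genotypes, the summed counts did not overlap for 6 excitatory neuron markers (260607 to 268999 in wild-type, 235532 to 252015 in heterozygous samples), 3 inhibitory neuron markers (17859 to 20183 and 20284 to 21072) and 6 striatal markers (5452 to 5916 and 4574 to 4719). They overlapped for microglia, endothelium, astrocytes, oligodendrocytes, blood (5 markers, 5780 to 7559 and 6295 to 6857) and meninges (7 markers, 5001 to 6107 and 5802 to 6592). Leukocyte sums were low, at 49.5 to 88.1 over the 6 samples. Slc17a7 and Tbr1, which mark cortical excitatory neurons, were present in every sample, with Slc17a7 at 47790 to 55120.

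**Figure D3:**
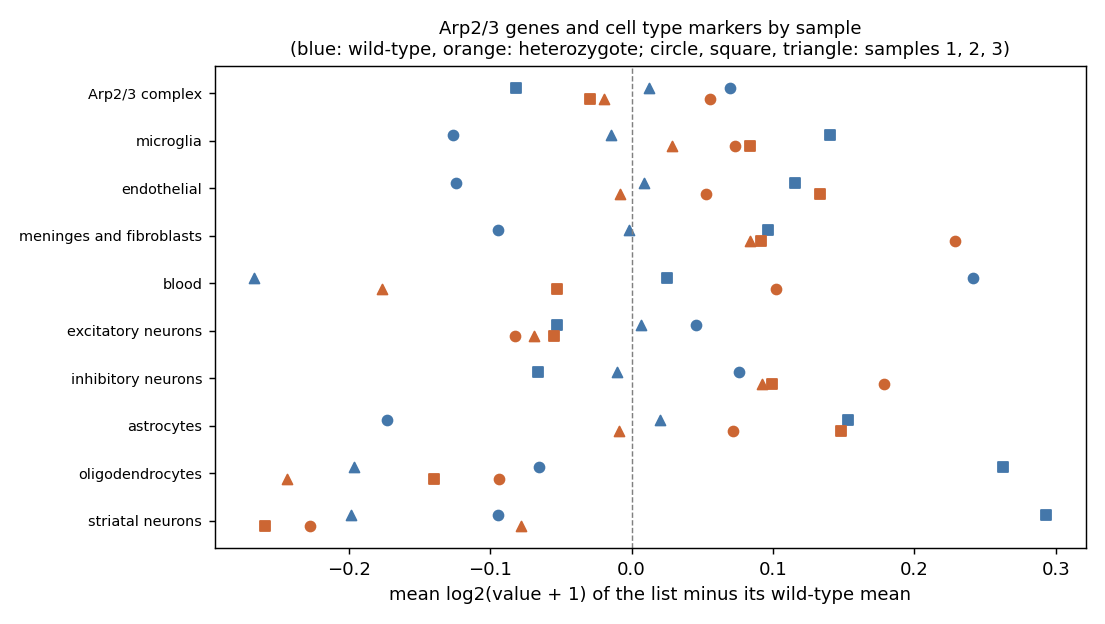
Mean log2(normalized count + 1) of each gene list minus its wild-type mean (x axis) for the 10 Arp2/3 genes and 9 lists of cell type markers, with blue for wild-type, orange for heterozygous samples, and circles, squares and triangles for samples 1, 2 and 3. Wild-type sample 2 is the lowest of 6 for Arp2/3 at -0.082 and the highest for microglia, astrocytes, oligodendrocytes and striatal neurons.

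The isoform makeup of the complex was then compared as the ratio of paralogues within each sample, a quantity that does not change when a whole sample is rescaled. The ratio of Arpc5 to Arpc5l was 0.933, 0.933 and 0.925 in wild-type samples 1, 2 and 3. It was 0.864, 0.857 and 0.891 in heterozygous samples 1, 2 and 3. All 3 heterozygous ratios were below all 3 wild-type ratios, and this was the only 1 of the 3 paralogue pairs whose genotypes did not overlap. The wild-type log2 ratios averaged -0.10 ± 0.0076 and the heterozygous ones -0.20 ± 0.029 (SD, n = 3 each), a difference of -0.095. The 9 differences between a heterozygous and a wild-type sample lay between -0.12 and -0.053. An exact permutation test (two-sided) gave p = 0.1, the lowest value possible with 3 against 3 samples, and 0.3 when adjusted over the 3 ratios. The difference did not pass 0.05, and the design could not have let it pass.

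Counting error limits how far that ratio can be read. The reads implied by the lowest values of each sample give each log2 ratio of Arpc5 to Arpc5l a counting SD of 0.037 to 0.050, which is larger than the SD of 0.0076 seen between the wild-type samples. The difference of -0.095 compares with a counting standard error of 0.036, which covers counting error only and rests on estimated depths.

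The ratio of Actr3 to Actr3b was 1.78, 1.71 and 1.89 in wild-type samples and 2.12, 1.96 and 1.86 in heterozygous samples. Heterozygous samples 1 and 2 were above every wild-type sample, and heterozygous sample 3 lay within the wild-type range. The mean log2 ratio was 0.84 ± 0.076 for wild-type samples and 0.98 ± 0.096 for heterozygotes (SD, n = 3 each), a difference of 0.14 with an exact two-sided permutation p of 0.2 (0.3 adjusted over the 3 ratios). The 9 pairwise differences ran from -0.027 to 0.32. The counting SD of this ratio was 0.028 to 0.037 per sample, below the SD of either genotype. The counting standard error of the difference was 0.026, which covers counting error only and rests on estimated depths.

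The ratio of Arpc1a to Arpc1b was 7.66, 7.83 and 7.22 in wild-type samples and 8.30, 6.08 and 9.84 in heterozygous samples. The heterozygous values fell on both sides of the wild-type ones, and heterozygous samples 2 and 3 were the lowest and the highest of the 6. The mean log2 ratio was 2.92 ± 0.061 for wild-type samples and 2.98 ± 0.35 for heterozygotes (SD, n = 3 each). The difference of 0.065 had an exact two-sided permutation p of 0.8 and turned to -0.091 without heterozygous sample 3. The heterozygous SD was well above the counting SD of this ratio, which was 0.053 to 0.074 per sample.

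**Figure D4:**
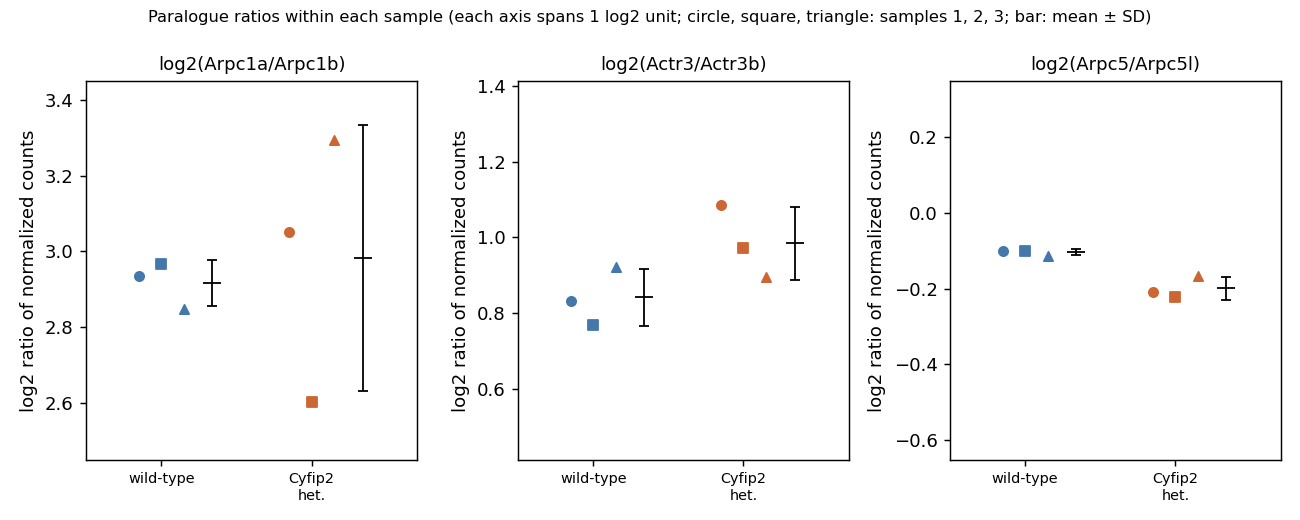
Log2 ratio of the normalized counts of each paralogue pair (y axes, each spanning 1 log2 unit) in wild-type (blue) and heterozygous (orange) samples, with circles, squares and triangles for samples 1, 2 and 3 and bars for the mean ± SD. The genotypes separate for Arpc5/Arpc5l by a small step of -0.095, while the heterozygous samples scatter widely for Arpc1a/Arpc1b.

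Levels of different genes can be compared only per length of transcript. Divided by the length of the longest coding transcript in kilobases, Arpc3 was highest at 4268 ± 180 normalized counts per kilobase in wild-type samples (SD, n = 3). Arpc2 followed at 3755 ± 354, then Arpc1a at 2831 ± 154, Actr2 at 2587 ± 274 and Actr3 at 2212 ± 212. Of the neighbours in this order, Arpc3 and Arpc2 just touched over the 6 samples, and Arpc1a overlapped Actr2 as Actr2 did Actr3. Arpc5l (1738 ± 49.4 per kilobase), Actr3b (1555 ± 81.7) and Arpc5 (1131 ± 31.2) formed a lower group, in which the 6-sample ranges did not overlap. Arpc4 was at 566 ± 46.2 and Arpc1b at 197 ± 8.04 per kilobase.

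The order depended on the length used. With 4 definitions of length, Arpc1b stayed in place 10 and Arpc1a in place 3, while Actr3 moved between places 1 and 6. On the same per-length scale, Arpc1b made up 6.50% ± 0.26 of the Arpc1 pair for wild-type samples and 6.33% ± 1.48 for heterozygotes (SD, n = 3 each). It was 13.4% in wild-type samples when the transcript with the longest coding sequence set the length. Arpc5l made up 60.6% ± 0.13 of the Arpc5 pair for wild-type samples and 62.1% ± 0.48 for heterozygotes. Actr3b made up 41.3% ± 1.28 of the Arp3 pair for wild-type samples and 39.0% ± 1.58 for heterozygotes. With the union of exons as the length, Arpc5l was the smaller share of its pair in wild-type samples, at 35.2%. Actr3b was then the larger share, at 51.6%, but 16.6% with the median coding transcript. The isoform usage of these genes in the samples is unknown, so the shares are approximate while their differences between samples do not depend on the choice in direction.

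The genes that switch the complex on or off were read from the same fit. Of 60 genes in 8 lists of activators, inhibitors, branch stabilisers, upstream GTPases, actin and capping genes, and other actin-related proteins, all were tested by limma-trend and none reached an adjusted p of 0.05 in either direction. Their median log2 fold change was -0.0029, with 29 above and 31 below wild type. Of the list medians, only those of the GTPases and of the actin-related proteins outside Arp2/3 kept their sign whichever sample was left out. At an unadjusted p under 0.05 there were 3, all higher in heterozygotes, and 0 lower, beside 2.36% and 2.71% of all tested genes. Values of the genotypes were fully apart for 4 of the 60, of which 3 were higher and 1 lower in heterozygotes, beside 5.15% and 5.3% of all tested genes.

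Among activators, the 10 WAVE complex genes other than Cyfip2 had a median log2 fold change of -0.011. The 2 with the smallest p were Abi3, a WAVE adaptor found in microglia, at 0.31 ± 0.21 (SE), and Wasf3 at -0.025 ± 0.051 (SE). The 10 genes of the N-WASP and WIP group had a median of -0.015, with 1 above and 9 below wild type, led by Wipf1, which stabilises WASP proteins, at -0.17 ± 0.14 (SE), and Fnbp1l at 0.080 ± 0.065 (SE). The 8 WASH and other activators, which serve endosomes and the Golgi among other sites, had a median of -0.013, led by Whamm at 0.096 ± 0.092 (SE) and Jmy at -0.078 ± 0.060 (SE).

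Among genes that act on finished branches, cortactin (Cttn) averaged 3892 ± 331 for wild-type samples and 3849 ± 197 for heterozygotes (SD, n = 3 each). Hcls1 averaged 135 ± 10.1 and 127 ± 19.2. The 11 inhibitors and debranching genes had a median log2 fold change of 0.023, with 7 above and 4 below wild type. Coro1b, a coronin that counters cortactin at branches, had the smallest p of them. It was at 2097, 2426 and 2176 in wild-type and at 2465, 2486 and 2510 in heterozygous samples, so all heterozygous values were above all wild-type values. Its log2 fold change was 0.16 ± 0.065 (SE; limma-trend adjusted p = 0.95, 0.035 unadjusted). Coro2b was at -0.093 ± 0.057 (SE).

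The 4 upstream GTPase genes were all above wild type by point estimate, with a median log2 fold change of 0.056. Rac1, which activates the WAVE complex, was at 0.070 ± 0.053 and Cdc42, which activates N-WASP, at 0.087 ± 0.056 (SE). The 7 actin and capping genes had a median of 0.041, led by the actin gene Actg1 at 0.081 ± 0.066 (SE) and the monomer-binding twinfilin Twf1 at 0.093 ± 0.072 (SE). Twf2, named after its values were seen, was the 1 pathway gene with all heterozygous values below all wild-type values, at 1614, 1583 and 1600 against 1551, 1546 and 1530.

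Actin-related proteins that are not Arp2/3 subunits were set beside the complex. Their 8 genes, which serve dynactin and chromatin remodellers, had a median log2 fold change of 0.0055. Actl6a, a subunit of chromatin remodellers, averaged 366 ± 13.3 for wild-type samples and 430 ± 22.7 for heterozygotes (SD, n = 3 each). The log2 fold change of Actl6a was 0.23 ± 0.085 (SE; limma-trend adjusted p = 0.93). Its neuronal counterpart Actl6b averaged 2512 ± 93.0 and 2785 ± 103, with a log2 fold change of 0.15 ± 0.057 (SE; limma-trend adjusted p = 0.95). Neither gene overlapped between genotypes.

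**Figure D5:**
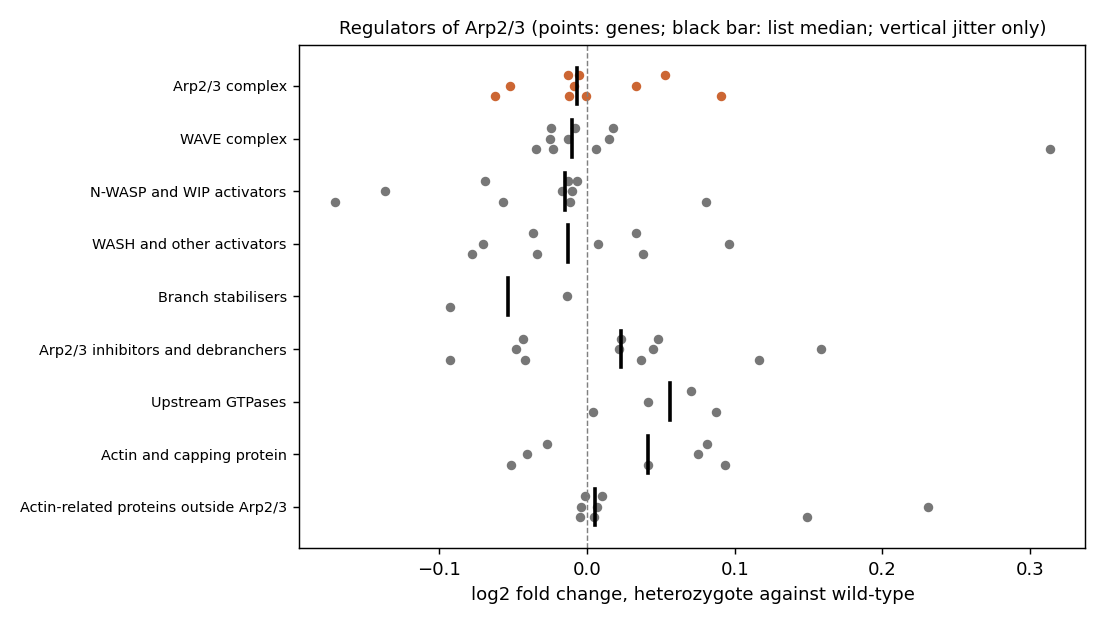
Fitted log2 fold change (x axis, heterozygote against wild-type) of each Arp2/3 gene (orange) and of the genes in 8 lists of its regulators and relatives (grey), with list medians as black bars. The 10 Arp2/3 genes lie between -0.062 and 0.091, and no gene shown passed an adjusted p of 0.05.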

How the data were processed

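The libraries were made with a stranded mRNA kit, per the labels' protocols. The submitters' processing notes list Salmon 0.11.2, R 3.6.0, DESeq2 1.19.11 and GRCm38 but assign them no step. The annotation release they used is unknown here. The authors deposited 1 table of a normalized signal, called normalized counts here, with per-sample totals of 36.4 to 37.1 M. The lowest values cluster at multiples of a step that differs between samples and implies 27.1 to 48.2 M reads, an estimate. Within 0.1 reads, 76.8% to 84.3% of values up to 2 reads were whole, but only 19.8% to 41.0% of values of 10 to 20 reads. Reads were therefore not recovered, and the limma design foreseen for normalized values was used, with no count model.

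The fit was limma-trend (limma 3.58.1, R 4.3.3) of log2(value + 1) on genotype alone, for genes with a mean of at least 10, with Benjamini-Hochberg adjustment over 15151 genes and a threshold of 0.05. Fold changes are on that scale, and the procedure was tested on simulated data. Ratios were compared by exact permutation. Of 18160 identifiers, 18122 matched a symbol. Lengths, positions and sequences came from GENCODE M21 on GRCm38, aligned with biopython 1.88. The members and lists were chosen with earlier results of these data known. Genes named were the 10 members, their ratios, Cyfip2 and the 2 genes of smallest p in each of 8 lists. Twf2, genes that overlap or share sequence with members, and the markers Slc17a7 and Tbr1 were added afterwards. The level of 1 other marker is not reported here. No 2 samples of the same genotype agreed within counting noise (mean chi-square per gene of 8.98 to 24.3). Alternatives were an unweighted trimmed-mean rescaling in place of TMM, limma without the trend, robust shrinkage, array weights, other filters and pseudocounts, a threshold of 0.1, a sample-number block, other lengths and leaving out each sample.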

Additional observations from a re-analysis of the deposited data

How the results depend on the processing

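The count of Arp2/3 genes past the threshold was 0 under all 16 alternatives, and that of the 60 regulators and relatives was 0 under all 8 run for them. Of 150 member values under alternatives, 136 kept their sign and 14 reversed, and the lowest adjusted p of a member under any of them was 0.649 by limma-trend. Arpc4 reversed to 0.0022 after trimmed-mean rescaling and to 0.0068 with array weights. Leaving out 1 sample gave log2 fold changes of -0.10 to 0.046 for Actr2, -0.18 to 0.15 for Arpc1b, -0.086 to 0.040 for Arpc2, -0.035 to 0.036 for Arpc3 and -0.078 to 0.076 for Arpc4. The Arpc1a/Arpc1b ratio ranged from -0.091 to 0.26 without 1 sample, Actr3/Actr3b from 0.092 to 0.19 and Arpc5/Arpc5l from -0.11 to -0.084. Shares per length moved with the length used: with the median coding transcript, the union of exons, no length and the longest coding sequence (added after seeing the data), Arpc1b was 17.4%, 6.22%, 11.7% and 13.4%, and Actr3b 16.6%, 51.6%, 35.8% and 45.5%. With the first 3 of these, Arpc5l was 59.4%, 35.2% and 51.8%.

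The labels do not say whether sample numbers pair the samples. Same-numbered deviations correlated at 0.13, 0.12 and -0.0052, and differently numbered ones at -0.16 to 0.046, so samples 1 and 2 correlated best with their own number and samples 3 did not. The samples were treated as unpaired. With the number as a replicate block, 0 Arp2/3 genes passed, 2 genes passed over the transcriptome as without it, and the Arpc5/Arpc5l difference of -0.095 had an exact sign-flip p of 0.25, the smallest that 3 pairs can give. Among all tested genes, 4 passed when wild-type sample 1 was left out, 4 when heterozygous sample 3 was, and 1 when heterozygous sample 1 was. There was also 1 with no variance trend and 1 with a mean of at least 50, against 2 in the fit reported. Cyfip2 kept a log2 fold change of -0.66 to -0.62 without any 1 sample. With 1 sample left out, median log2 fold changes ranged from -0.037 to 0.038 for the Arp2/3 genes, -0.029 to 0.026 for WAVE, -0.063 to 0.023 for N-WASP and WIP, -0.037 to 0.0039 for WASH and other activators, -0.12 to 0.020 for branch stabilisers, -0.0026 to 0.045 for inhibitors and -0.0091 to 0.093 for actin and capping genes. They were 0.034 to 0.064 for GTPases and 0.0017 to 0.019 for other actin-related proteins. The lowest or highest of these came without wild-type sample 1 for WAVE (0.026), WASH (-0.037) and actin and capping genes (0.093), and without heterozygous sample 3 for branch stabilisers (0.020). The small number of samples limits what could be seen: the interval for Arpc1b allows 79.4% to 124% of wild type.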
